A study of Mus musculus with 19 samples.

Results

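The response of LDHA-knockdown (LDHA-KD) tumours to CTLA-4 blockade was measured by setting 5 libraries from tumours treated with anti-CTLA-4 against 5 from tumours treated with control IgG, which are 10 of the 19 libraries of the series. Membership followed the labels of genotype and treatment, and every gene with enough counts was examined. All 10 tumours were grown from 4T1-KD cells, a derivative of the 4T1 mouse mammary carcinoma line with low Ldha, in syngeneic BALB/cAnN mice. Each mouse received 1000000 cells, and antibody was given from day 3 in 3 doses, with 3 days between doses, before the tumours were collected. The other 9 libraries came from control 4T1 tumours under anti-CTLA-4 (n = 5) or IgG (n = 4) on the same schedule, and they enter here through the shared estimate of the spread and the test of the difference between the tumour types. The series asks how the blockade acts in control and LDHA-deficient tumours. The labels do not say how the knockdown was made, whether the line is a single clone, or the age and sex of the mice. Whether every library is a different animal is likewise not stated, and the p-values therefore describe the spread among these libraries. Whole tumour tissue was sequenced, so fewer cells of a type and less RNA per cell cannot be told apart.

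CTLA-4 is an inhibitory receptor of T cells that competes with CD28 for the ligands CD80 and CD86, and regulatory T cells, which are defined by the transcription factor Foxp3, carry it at a high level. Antibodies that block it release the activation of conventional T cells and can act on regulatory T cells directly. LDHA, the lactate dehydrogenase subunit that favours conversion of pyruvate to lactate, sustains glycolysis in tumour cells, and glucose and lactate in the tumour are known to affect how T cells of both kinds function.

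Gene counts per library ran from 36020567 to 43266699 under anti-CTLA-4 and from 31783272 to 38066009 under IgG, a difference that did not pass (two-sided exact permutation test, p = 0.0794, n = 5 each; the smallest possible p was 0.00794). Anti-CTLA-4 replicates 3 and 5 stood apart from the other libraries. On the first principal component of the 10 libraries, which held 41.9% of the variance, they lay at 55.9 and 48.3, replicate 4 at 11.6 and the other anti-CTLA-4 libraries at -21.1 and -17.1, while the IgG libraries ran from -28.2 to 1.52. In both, the share of records that fell outside genes was above that of any other LDHA-KD library, 13.8% and 12.1% against 8.42% to 11.6% elsewhere, and the share of mitochondrially encoded counts was below that of any other, 2.02% and 1.82% against 2.26% to 2.82%. Their part in the results was not tested, and values without them are given beside the main gene groups.

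Ldha itself (chromosome 7, 46841475 to 46855627 on GRCm38, plus strand) remained low in all 10 libraries, between 452 and 584 CPM (counts of a gene per 1000000 counts of the scaled library), where the control tumours had 1283 to 2244 CPM. Under anti-CTLA-4 its level was 541 ± 38.1 CPM (SD, n = 5) and under IgG 485 ± 27.2 CPM (n = 5). The treated and IgG libraries overlapped, and the log2 fold change of anti-CTLA-4 against IgG, 0.16 (SE 0.10), did not pass (edgeR adjusted p = 0.556). Ldhb, the subunit that favours the reverse reaction, had 6.01 ± 1.32 CPM against 6.65 ± 1.46 CPM and a log2 fold change of -0.15 (SE 0.19, edgeR adjusted p = 0.760).

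No gene passed an adjusted p of 0.05 between anti-CTLA-4 and IgG in LDHA-KD tumours by edgeR's quasi-likelihood test, in which 0 of 16763 genes were called higher (0%) and 0 lower (0%). The smallest adjusted p was 0.293. At an unadjusted p under 0.05, 1372 genes were higher (8.18%) and 615 lower (3.67%). These shares are the background against which the gene groups are read with all libraries. The groups did not overlap for 137 genes with all 5 treated libraries above all 5 IgG libraries (0.817%) and for 95 genes with all treated libraries below (0.567%). Large differences were mostly upward, with 287 genes at a log2 fold change above 1 and 39 below -1, although the median over all genes was -0.0049. DESeq2 on the same counts called 44 genes higher and 6 lower, whereas limma voom called 0, with 1850 genes at an unadjusted p under 0.05. When anti-CTLA-4 replicates 3 and 5 were both left out, edgeR called 0 of 16869 genes, and 208 were higher and 156 lower at an unadjusted p under 0.05. Counts without those replicates are read against these numbers, and with fewer treated libraries fewer genes can reach a small p.

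**Figure D1:**
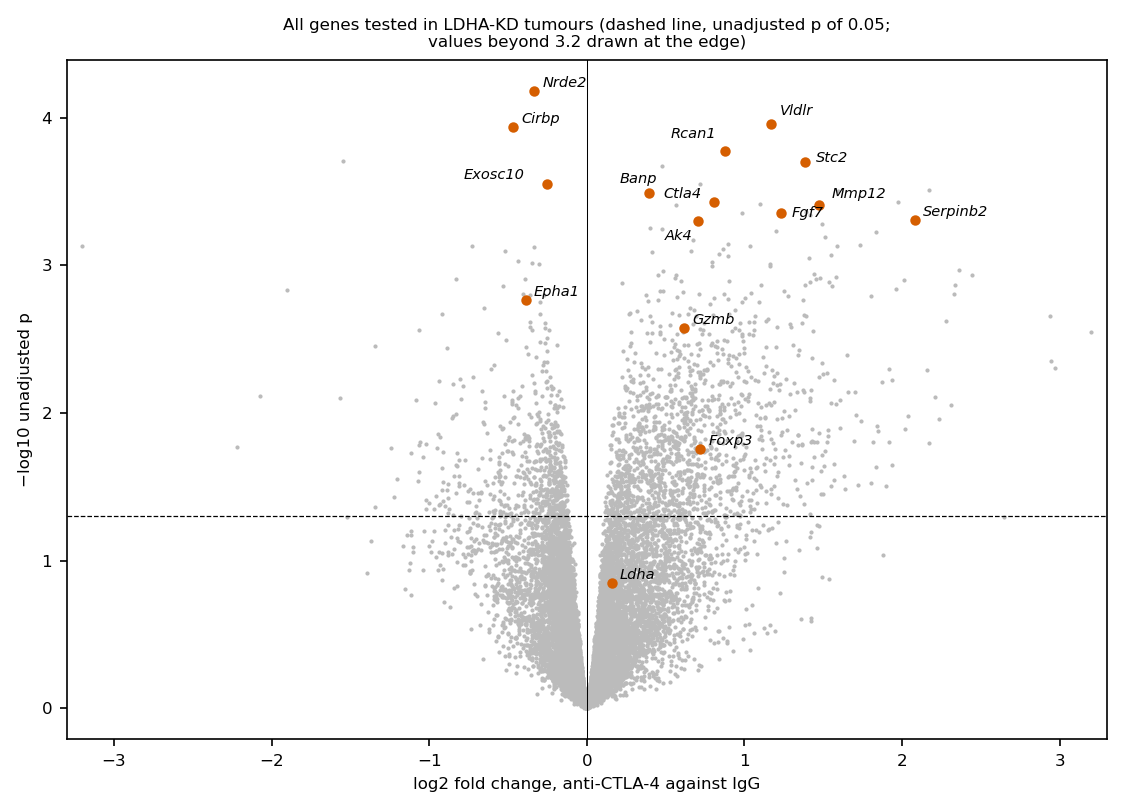
All 16763 genes tested in LDHA-KD tumours, with the log2 fold change of anti-CTLA-4 against IgG on the horizontal axis and -log10 of the unadjusted edgeR p on the vertical axis (1 point per gene, named genes in orange). More points lie above the dashed line at an unadjusted p of 0.05 on the right (1372) than on the left (615), and the smallest adjusted p was 0.293.

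The gene groups described next are lists of cell type markers and pathways. Each is given by the number of its members at an unadjusted p under 0.05 and by the median of its members' log2 fold changes, beside the shares over all genes given above. In the main edgeR fit 0 members of any list passed the adjusted threshold. The lists were chosen with earlier results of these data known, so the counts describe these libraries.

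**Figure D2:**
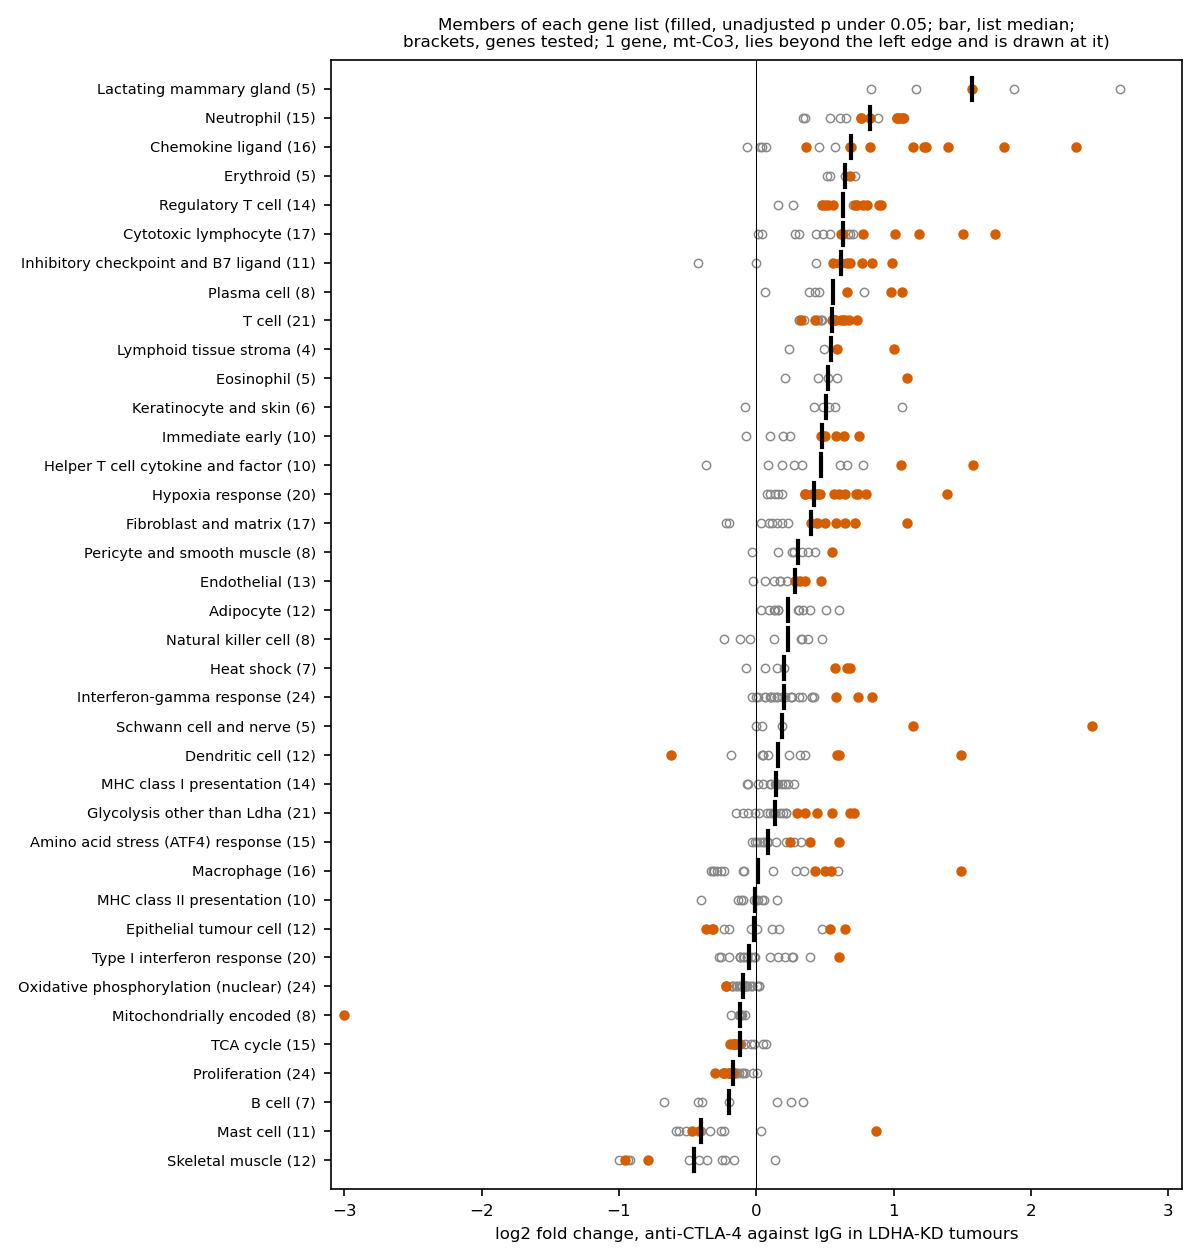
Log2 fold change of anti-CTLA-4 against IgG in LDHA-KD tumours for each member of 38 gene lists (1 circle per gene, filled in orange at an unadjusted p under 0.05, vertical bar at the list median, number of genes tested in brackets). Neutrophil (median 0.82), chemokine (0.69) and T cell (0.55) genes lie to the right, proliferation (-0.17) and skeletal muscle (-0.45) genes to the left.

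Genes of T cells were higher on average in the treated tumours, although the mean log2 CPM of the list in anti-CTLA-4 replicate 1, 2.75, lay within the IgG range of 2.39 to 3.02. Of 21 T cell genes tested, 12 were higher at an unadjusted p under 0.05 and 0 lower, with a median log2 fold change of 0.55, and all 21 values were positive. Cd3g, a chain of the CD3 complex that signals for the T cell receptor (chromosome 9, 44969572 to 44980431), had 15.5, 23.1, 24.2, 29.4 and 17.2 CPM in anti-CTLA-4 replicates 1 to 5 and 14.1, 13.2, 14.3, 11.0 and 15.8 CPM in the IgG replicates. Only anti-CTLA-4 replicate 1 lay within the IgG range. The log2 fold change of Cd3g was 0.68 (SE 0.23, edgeR adjusted p = 0.312). Its neighbours Cd3d and Cd3e, which complete the CD3 complex, had log2 fold changes of 0.57 (SE 0.22) and 0.74 (SE 0.28). Zap70, the kinase that relays the receptor signal, had 5.28 ± 1.23 CPM against 3.44 ± 0.746 CPM (n = 5 each), with a log2 fold change of 0.62 (SE 0.23). For Cd4, the co-receptor of helper and most regulatory T cells (chromosome 6, 124864692 to 124888221), the treated libraries had 12.6, 23.4, 29.9, 29.0 and 24.9 CPM and the IgG libraries 13.9, 16.5, 17.7, 10.9 and 17.7 CPM. Again replicate 1 was the treated library within the IgG range, and the log2 fold change of Cd4 was 0.64 (SE 0.25, edgeR adjusted p = 0.341). Cd8a, which marks cytotoxic T cells (chromosome 6, 71373427 to 71379173), was much more uneven, with 3.46, 1.11, 8.14, 5.81 and 4.50 CPM under anti-CTLA-4 and 3.58, 4.51, 2.32, 2.44 and 4.19 CPM under IgG. Anti-CTLA-4 replicate 2 had the lowest Cd8a of the 10 libraries, and the log2 fold change was 0.43 (SE 0.36, edgeR adjusted p = 0.649). Without replicates 3 and 5 the value for Cd8a was 0.02, against 0.50 for Cd4 and 0.73 for Cd3g.

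Regulatory T cell genes had a slightly higher median than the general T cell list and, unlike it, held members in which the groups did not overlap. Of 14 tested, 10 were higher at an unadjusted p under 0.05, 0 were lower, all 14 were positive, and the median log2 fold change was 0.63. For 4 of them, Tnfrsf9, Il2ra, Tnfrsf18 and Il10, all treated libraries lay above all IgG libraries, where 0.817% of all genes did. Il10 was not among the genes at an unadjusted p under 0.05 (edgeR unadjusted p = 0.0998). In the other members the groups overlapped. Among these, Lrrc32 was higher under anti-CTLA-4 in 60% of library pairs, and Ikzf2, Ikzf4 and Itgae had log2 fold changes of 0.27, 0.48 and 0.16. Ctla4 (chromosome 1, 60887000 to 60915832), the gene of the receptor that the antibody binds, had 12.04, 9.83, 16.4, 16.9 and 19.4 CPM under anti-CTLA-4 and 6.89, 7.21, 9.08, 9.54 and 10.0 CPM under IgG. The groups met only at anti-CTLA-4 replicate 2, which lay just under the highest IgG library. The log2 fold change of Ctla4 was 0.80 (SE 0.19, unadjusted p = 0.000372, edgeR adjusted p = 0.293), and DESeq2 gave it an adjusted p of 0.0258. Tnfrsf9, a co-stimulatory receptor also known as 4-1BB (chromosome 4, 150914562 to 150946102), had 65.9, 68.3, 147, 95.1 and 132 CPM in the treated libraries and 55.8, 46.6, 54.1, 57.6 and 57.8 CPM under IgG. All 5 treated libraries exceeded every IgG library, those of replicates 3 and 5 by the most, and the log2 fold change was 0.90 (SE 0.24, edgeR adjusted p = 0.293, DESeq2 adjusted p = 0.0499). Il2ra, the high-affinity chain of the interleukin-2 receptor, was separated as well, with 21.3 to 33.3 CPM against 14.0 to 19.8 CPM and a log2 fold change of 0.74 (SE 0.24). Icos, a co-stimulatory receptor of activated T cells, had 34.0 ± 7.47 CPM against 19.9 ± 3.63 CPM (n = 5 each) and a log2 fold change of 0.77 (SE 0.23).

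Foxp3, the master factor of the regulatory T cell lineage (chromosome X, 7573644 to 7595245), followed the uneven pattern. Its level was 4.70, 3.78, 9.45, 9.14 and 12.3 CPM under anti-CTLA-4 and 3.89, 4.59, 5.72, 3.98 and 5.72 CPM under IgG. Replicates 3, 4 and 5 lay above all IgG libraries, whereas replicates 1 and 2 lay within or under the IgG range. The log2 fold change of Foxp3 was 0.72 (SE 0.28, edgeR adjusted p = 0.337), and without replicates 3 and 5 it was 0.30, while that of Ctla4 was 0.60. Over the list, 5 of 14 genes were higher at an unadjusted p under 0.05 without those libraries, with a median of 0.47. For the T cell list the count was 3 of 21 with a median of 0.38, where 208 of all 16869 genes were higher.

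**Figure D3:**
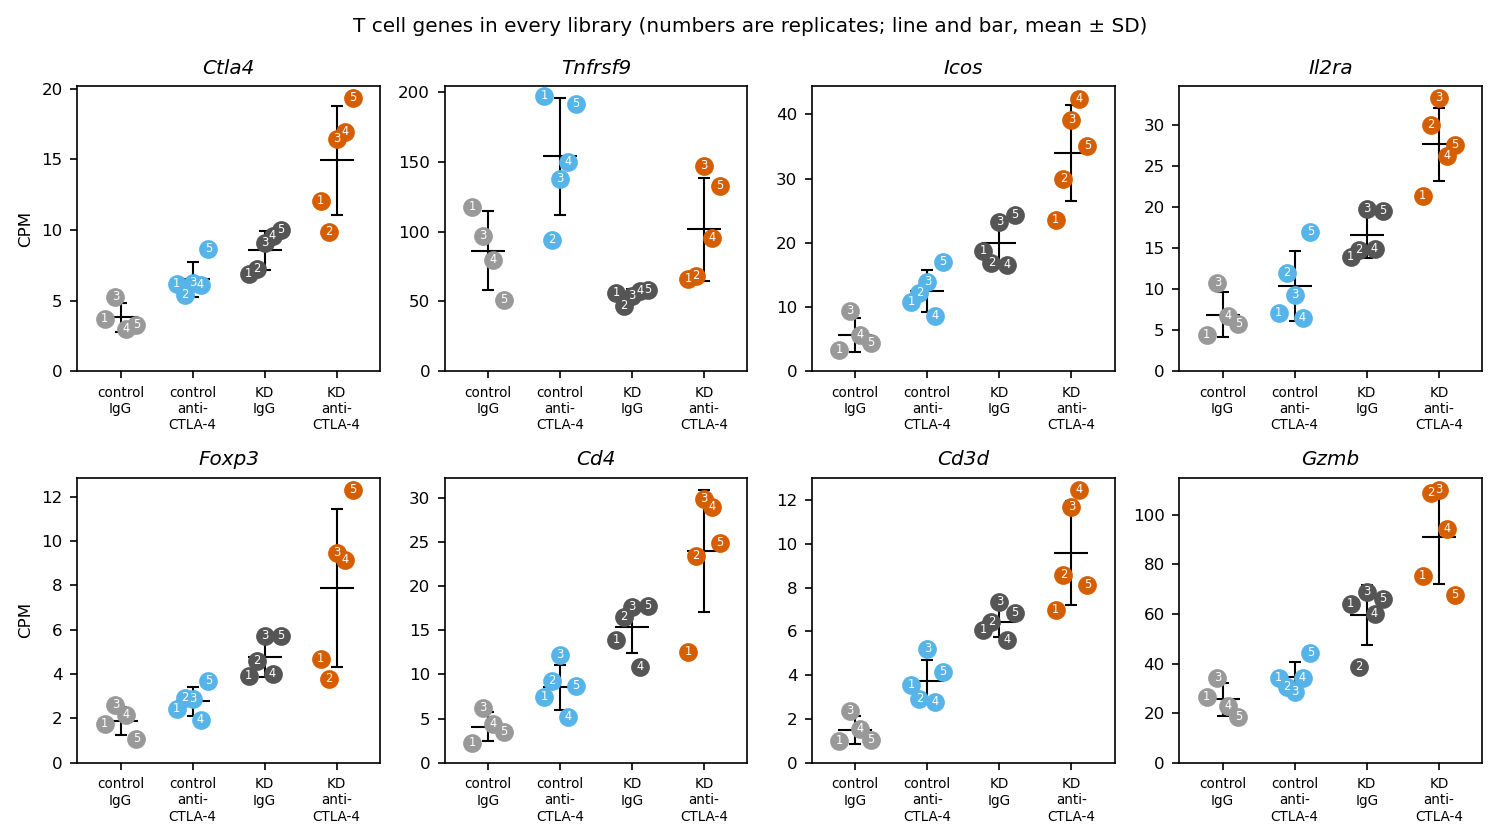
CPM of 8 T cell genes in every library (1 numbered circle per replicate, horizontal line and bar for the mean ± SD of a group, linear axes from 0). In LDHA-KD tumours, Tnfrsf9 and Il2ra show no overlap between anti-CTLA-4 and IgG, and Foxp3 is above the IgG range in replicates 3, 4 and 5 only.

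Effector genes were also higher on average, but the granzymes did not share one pattern. Of 17 cytotoxic lymphocyte genes tested, 7 were higher at an unadjusted p under 0.05 and 0 lower, with a median of 0.63. Gzmb, the main granzyme of cytotoxic granules (chromosome 14, 56258838 to 56262260), had 75.5, 109, 110, 94.2 and 67.7 CPM under anti-CTLA-4 and 64.2, 38.5, 68.8, 59.9 and 65.9 CPM under IgG. A single treated library, replicate 5, lay within the IgG range of Gzmb, and the log2 fold change was 0.62 (SE 0.18, edgeR adjusted p = 0.295). Gzmg, a granzyme of the same gene cluster (chromosome 14, 56156582 to 56159579), had 1.53, 0.432, 12.2, 4.22 and 8.79 CPM in the treated libraries and 1.31 to 2.25 CPM under IgG. Its level was high in replicates 3 and 5, intermediate in 4 and lowest of all in 2, for a log2 fold change of 1.74 (SE 0.62, edgeR adjusted p = 0.323). Gzmd and Gzme, close paralogs between which reads can be split, gave 1.19 (SE 0.48) and 1.01 (SE 0.32). Leaving out replicates 3 and 5 left Gzmb at 0.64 but took Gzmg to 0.35, Gzme to 0.29 and Gzmd to -0.08, and the list to 1 of 17 genes with a median of 0.12. Ifng, which encodes the effector cytokine interferon-gamma (chromosome 10, 118441046 to 118445892), had 2.49, 0.837, 3.03, 2.18 and 1.92 CPM against 1.26, 1.08, 1.31, 1.20 and 1.58 CPM. Its treated libraries were above the IgG range except for replicate 2, which was below it, and the log2 fold change was 0.70 (SE 0.42, edgeR adjusted p = 0.522). Natural killer cell genes had 0 of 8 at an unadjusted p under 0.05 and a median of 0.23; Klrc1, an inhibitory receptor gene of these cells, had 0.48 (SE 0.28).

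Among the inhibitory checkpoint and B7 ligand genes, 7 of 11 tested were higher at an unadjusted p under 0.05 and 0 lower, with a median of 0.61. Cd80, which encodes one of the ligands of CTLA-4 (chromosome 16, 38455561 to 38496335), had 4.63, 4.37, 7.27, 6.67 and 7.43 CPM under anti-CTLA-4 and 4.13, 4.03, 3.88, 3.92 and 4.68 CPM under IgG. Replicates 3, 4 and 5 were clear of the IgG range and replicates 1 and 2 were within it, with a log2 fold change of 0.56 (SE 0.17, edgeR adjusted p = 0.304). Pdcd1, which encodes the receptor PD-1, had 6.48 ± 2.24 CPM against 4.10 ± 0.405 CPM and a log2 fold change of 0.66 (SE 0.22). Cd274, the gene of its ligand PD-L1 (chromosome 19, 29367455 to 29388095), had 82.0, 63.8, 244, 120 and 189 CPM against 81.0, 73.0, 73.0, 72.1 and 90.3 CPM. Here replicates 3 and 5 were highest, replicate 2 was under every IgG library, and the log2 fold change was 0.84 (SE 0.31) with all libraries and 0.18 without those replicates. Tigit, another inhibitory receptor of T cells, had 49.5 ± 10.9 CPM against 29.1 ± 10.3 CPM, with a log2 fold change of 0.77 (SE 0.27). The list had 0 of 11 genes at an unadjusted p under 0.05 and a median of 0.34 without replicates 3 and 5.

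Of 10 helper T cell cytokine and factor genes tested, 2 were higher at an unadjusted p under 0.05, with a median of 0.47. Il13, a type 2 cytokine (chromosome 11, 53631324 to 53634702), was low in level but separated the groups, with 3.19, 3.43, 4.08, 3.16 and 3.99 CPM under anti-CTLA-4 and 2.05, 0.846, 2.38, 2.13 and 1.20 CPM under IgG. The lowest treated library exceeded the highest IgG library, the log2 fold change was 1.06 (SE 0.31, edgeR adjusted p = 0.295), and it was 0.92 without replicates 3 and 5. Il5, a related cytokine that supports eosinophils, stayed near the floor of 3 counts (0.0693 to 0.0944 CPM in these libraries), at 0.140 to 0.902 CPM against 0.0513 to 0.191 CPM, with a log2 fold change of 1.58 (SE 0.54, edgeR adjusted p = 0.312). The mean log2 CPM of this list was above the highest IgG library in all 5 treated libraries, though by very little in replicate 1 (1.541 against 1.532). Without replicates 3 and 5 the median log2 fold change of the list was 0.25.

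Interferon response and antigen presentation genes had small medians, and anti-CTLA-4 replicate 2 was low in them. Of 24 interferon-gamma response genes, 3 were higher at an unadjusted p under 0.05 and 0 lower, a median of 0.20, and of 20 type I interferon genes 1 was higher, a median of -0.05. Socs1, a feedback inhibitor of cytokine signalling, had 18.6 ± 4.86 CPM against 12.5 ± 1.96 CPM, with a log2 fold change of 0.58 (SE 0.21). MHC class I presentation genes had 0 of 14 and MHC class II genes 0 of 10 at an unadjusted p under 0.05, with medians of 0.14 and -0.01. Tap2, a subunit of the peptide transporter for class I, had 95.5, 61.7, 132, 109 and 126 CPM under anti-CTLA-4 and 75.4 to 95.4 CPM under IgG. Anti-CTLA-4 replicate 2 was lowest in Tap2 and also had the lowest level of the interferon-gamma, class I and class II lists among the 10 libraries, whereas the other 4 treated libraries lay above every IgG library in the interferon-gamma and class I lists. Without replicate 2 the medians of these 3 lists were 0.32, 0.26 and 0.17, and without replicates 3 and 5 they were 0.06, -0.01 and -0.14. Dendritic cell genes went both ways, with 3 of 12 higher and 1 lower. Ccl17, a chemokine of dendritic cells that attracts T cells (chromosome 8, 94810453 to 94812036), had 4.72, 4.59, 17.3, 9.68 and 16.6 CPM against 4.16, 2.87, 3.58, 4.66 and 3.51 CPM, with replicates 3, 4 and 5 far above the IgG range. Its log2 fold change was 1.49 (SE 0.36, edgeR adjusted p = 0.293, DESeq2 adjusted p = 0.0235). Xcr1, a marker of cross-presenting dendritic cells, had 1.89 ± 0.755 CPM against 2.91 ± 1.03 CPM and -0.62 (SE 0.29), while Batf3, a factor that these cells depend on, had 0.59 (SE 0.20).

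The largest list medians among immune genes were those of neutrophils and chemokines, and both were much smaller without anti-CTLA-4 replicates 3 and 5. Replicate 4 was also above every IgG library in the mean log2 CPM of both lists (4.34 against at most 4.06, and 5.66 against at most 5.38). Of 15 neutrophil genes tested, 8 were higher at an unadjusted p under 0.05 and 0 lower, with a median of 0.82, and of 16 chemokine genes 10 were higher and 0 lower, with a median of 0.69. Cxcl3, which attracts neutrophils (chromosome 5, 90786103 to 90789600), had 9.77, 4.72, 80.4, 16.5 and 69.1 CPM under anti-CTLA-4 and 8.02, 2.56, 12.2, 7.50 and 5.72 CPM under IgG. Replicates 3 and 5 were several times above every other library, and replicates 1 and 2 lay within the IgG range. The log2 fold change of Cxcl3 was 2.33 (SE 0.63, edgeR adjusted p = 0.293), and without those replicates it was 0.53. Cxcl2, a close paralog with the same receptor, had 31.0, 18.8, 160, 31.9 and 142 CPM against 10.1 to 29.9 CPM, again with replicates 3 and 5 far above the rest. Ccl3 and Ccl4, which attract monocytes and T cells, gave log2 fold changes of 1.39 (SE 0.39) and 1.14 (SE 0.36), and 0.39 and 0.29 without those replicates. Mmp9, a gelatinase stored in neutrophil granules (chromosome 2, 164940780 to 164955850), had 139, 121, 396, 281 and 447 CPM against 148, 112, 133, 125 and 145 CPM. Replicates 3, 4 and 5 exceeded all IgG libraries of Mmp9, and the log2 fold change was 1.06 (SE 0.31). Csf3r, the receptor for granulocyte colony-stimulating factor, had 1.02 (SE 0.32), Mmp8, neutrophil collagenase, 1.04 (SE 0.33) and Il1b, the gene of interleukin-1 beta, 0.76 (SE 0.24). Without replicates 3 and 5, 0 of 15 neutrophil genes and 0 of 16 chemokine genes were at an unadjusted p under 0.05, and the medians were 0.24 and 0.21. In control tumours the same treatment gave the neutrophil list a median of 0.89, with 8 of 15 genes higher and 0 lower. The chemokine list there had a median of 0.48, with 5 of 16 higher and 1 lower.

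Macrophage genes were split, with 4 of 16 higher at an unadjusted p under 0.05, 0 lower and a median of 0.01. Nos2, inducible nitric oxide synthase (chromosome 11, 78920787 to 78960254), had 42.0, 48.1, 308, 97.0 and 226 CPM against 56.5, 33.6, 56.8, 47.5 and 62.5 CPM. It was high in replicates 3 and 5, higher than under IgG in 4 and within the IgG range in 1 and 2, for a log2 fold change of 1.49 (SE 0.47, edgeR adjusted p = 0.312) and 0.28 without replicates 3 and 5. Arg1, arginase, which competes with it for arginine, had 1490 ± 356 CPM against 1025 ± 204 CPM, with a log2 fold change of 0.54 (SE 0.24). Mertk, a receptor for the uptake of dying cells, had 0.42 (SE 0.15). Of 11 mast cell genes, 2 were lower and 1 was higher, with a median of -0.41. Tpsab1, a mast cell tryptase, had 218, 170, 130, 174 and 119 CPM under anti-CTLA-4 and 288, 257, 144, 211 and 220 CPM under IgG, with a log2 fold change of -0.47 (SE 0.18). Leaving out replicates 3 and 5 took the mast cell list to 0 of 11 at an unadjusted p under 0.05 and a median of -0.10, and Tpsab1 to -0.26. The higher member was Hdc, histidine decarboxylase, which other myeloid cells also express, with 0.87 (SE 0.30). Among eosinophil genes 1 of 5 tested was higher (Ear2, a ribonuclease, 1.10, SE 0.40). B cell genes had 0 of 7 and plasma cell genes 3 of 8 higher, with medians of -0.20 and 0.56. Igkc, the kappa light chain constant region (chromosome 6, 70726435 to 70726966), had 5.88, 13.8, 7.57, 11.2 and 10.5 CPM against 5.71, 2.10, 3.70, 5.90 and 6.07 CPM. Only replicate 1 of the treated libraries lay within the IgG range of Igkc, the log2 fold change was 1.06 (SE 0.45, edgeR adjusted p = 0.366), and it was 1.13 without replicates 3 and 5.

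Hypoxia response genes, which are targets of the hypoxia-inducible factors, separated the groups most often among the pathway lists. All 20 tested had a positive log2 fold change, 13 were at an unadjusted p under 0.05 and the median was 0.42. For 7 of them, P4ha2, Ero1l, Egln1, Mxi1, Ndrg1, Bnip3 and Higd1a, all treated libraries exceeded all IgG libraries, where 0.817% of all genes did. The promoters of 3 of these 7 are shown because hypoxia-inducible factors bind a core of 5 letters, ACGTG, and because these are the members with the smallest unadjusted p among those with a single start site in the RefSeq table, a choice made after their values were seen. Each sequence runs 5′ to 3′ on the gene's strand from 250 bases before to 50 bases after the start in RefSeq on GRCm38.p6, with the core in capitals on either strand (ACGTG, or CACGT where it lies on the opposite strand).
P4ha2: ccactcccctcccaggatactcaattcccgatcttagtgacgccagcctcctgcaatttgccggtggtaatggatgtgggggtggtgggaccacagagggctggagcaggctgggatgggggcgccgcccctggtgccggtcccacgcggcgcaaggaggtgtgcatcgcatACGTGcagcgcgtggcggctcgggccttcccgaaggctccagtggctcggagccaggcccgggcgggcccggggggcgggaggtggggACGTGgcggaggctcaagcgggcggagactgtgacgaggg
Ero1l: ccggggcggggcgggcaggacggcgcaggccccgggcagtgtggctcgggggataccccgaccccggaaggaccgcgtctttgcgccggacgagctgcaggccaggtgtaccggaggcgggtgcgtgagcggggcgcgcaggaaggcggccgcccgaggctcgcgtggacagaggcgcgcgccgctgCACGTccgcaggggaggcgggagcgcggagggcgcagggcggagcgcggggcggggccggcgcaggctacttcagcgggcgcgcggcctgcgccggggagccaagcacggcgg
Egln1: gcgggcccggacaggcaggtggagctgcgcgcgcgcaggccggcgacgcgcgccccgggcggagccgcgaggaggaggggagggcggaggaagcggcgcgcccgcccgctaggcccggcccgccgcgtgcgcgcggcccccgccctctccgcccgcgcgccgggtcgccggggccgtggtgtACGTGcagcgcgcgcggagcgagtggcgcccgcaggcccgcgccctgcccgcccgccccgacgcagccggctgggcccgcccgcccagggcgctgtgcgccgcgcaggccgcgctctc
They lie at chr11:54100674-54100973 (plus strand), chr14:45318523-45318822 (minus strand) and chr8:124949205-124949504 (minus strand). P4ha2 held 2 copies of the core, and Ero1l (listed as Ero1a) and Egln1 held 1 each. Of 20 hypoxia genes 16 had such a window and 12 of them held the core in at least 1 window, or 13 of 22 windows (59.1%), against 19.6% of all 32851 windows of 300 bases in the table. The list holds targets of these factors, so its higher share can follow from how it was chosen and does not bear on the treatment. A match of these letters is a description and does not show that a factor is bound.

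P4ha2, a subunit of the hydroxylase that matures collagen (chromosome 11, 54100095 to 54131665), had 30.0, 31.8, 63.9, 36.7 and 49.6 CPM under anti-CTLA-4 and 28.2, 28.5, 22.3, 27.8 and 29.0 CPM under IgG. All treated libraries lay above the IgG libraries, replicates 1 and 2 by little, and the log2 fold change was 0.64 (SE 0.18, edgeR adjusted p = 0.295). Ero1l, an oxidase of disulfide formation in the endoplasmic reticulum (chromosome 14, 45283087 to 45318771), had 245, 303, 429, 313 and 472 CPM against 214, 151, 231, 237 and 232 CPM. These groups did not overlap either, and the log2 fold change was 0.73 (SE 0.25, edgeR adjusted p = 0.314). Egln1, a prolyl hydroxylase that marks hypoxia-inducible factors for degradation, had 0.36 (SE 0.13). Stc2, a secreted glycoprotein (chromosome 11, 31357307 to 31370074), had 3.60, 6.18, 15.3, 6.64 and 9.74 CPM against 3.47, 2.56, 3.12, 2.81 and 3.87 CPM. Replicate 1 was the treated library within the IgG range of Stc2, and the log2 fold change was 1.39 (SE 0.30, edgeR adjusted p = 0.293, DESeq2 adjusted p = 0.0164). Loxl2, a collagen cross-linking oxidase, had 69.9 ± 33.8 CPM against 41.8 ± 3.88 CPM, with a log2 fold change of 0.74 (SE 0.21) and 0.19 without replicates 3 and 5. The mean log2 CPM of the list ran from 6.35 to 6.98 in the treated libraries and from 5.97 to 6.31 under IgG, with no overlap. Without replicates 3 and 5, all 20 values were still positive, 1 of 20 was at an unadjusted p under 0.05 and the median was 0.20.

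Glycolysis genes other than Ldha had a smaller difference, with 6 of 21 higher at an unadjusted p under 0.05, 0 lower and a median of 0.14. Slc16a3, the lactate exporter MCT4 (chromosome 11, 120948480 to 120960868), had 52.0, 43.4, 116, 68.2 and 101 CPM under anti-CTLA-4 and 45.3, 44.0, 42.0, 47.8 and 52.8 CPM under IgG. Replicates 3, 4 and 5 were above the IgG range of Slc16a3 and replicates 1 and 2 within it, for a log2 fold change of 0.71 (SE 0.21, edgeR adjusted p = 0.304) and 0.24 without replicates 3 and 5. Slc2a3, a glucose transporter, had 0.68 (SE 0.26), and Pgam1, a glycolytic mutase, 0.30 (SE 0.11). These were 0.15 and 0.12 without replicates 3 and 5, and the list had 0 of 21 genes at an unadjusted p under 0.05 and a median of 0.06. Mitochondrial metabolism leaned the other way with all libraries. Of 15 TCA cycle genes 6 were lower at an unadjusted p under 0.05 and 0 higher (median -0.12), and of 24 nuclear oxidative phosphorylation genes 2 were lower and 0 higher (median -0.10). Idh3b, a subunit of isocitrate dehydrogenase, had 97.5 ± 7.56 CPM against 109 ± 3.59 CPM, with a log2 fold change of -0.16 (SE 0.06). Ndufv1, a subunit of complex I, had 67.7 ± 2.25 CPM against 78.8 ± 11.2 CPM and -0.22 (SE 0.08). When replicates 3 and 5 were left out, the TCA cycle list had 0 of 15 genes lower and a median of -0.05, and the oxidative phosphorylation list had 1 of 24 lower and a median of 0.01, on the other side of 0. The mitochondrially encoded genes had a median of -0.12 with all libraries and 0.04 without those replicates, and the member at an unadjusted p under 0.05, mt-Co3, was set by 1 library: IgG replicate 3 had 50.5 CPM while the other 9 libraries had 0.0617 to 0.282 CPM. Of 15 amino acid stress genes 3 were higher, among them Slc7a11, the cystine importer, at 0.60 (SE 0.20). That list had 0 of 15, a median of 0.05, and Slc7a11 at 0.12 without replicates 3 and 5.

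Stromal genes also leaned upward. Of 17 fibroblast and matrix genes 7 were higher at an unadjusted p under 0.05 and 0 lower (median 0.40), and of 13 endothelial genes 4 were higher and 0 lower (median 0.28). Lox, a collagen cross-linking oxidase, had 81.3, 75.0, 275, 122 and 176 CPM under anti-CTLA-4 and 56.5, 56.9, 77.9, 82.0 and 67.0 CPM under IgG. Replicates 3, 4 and 5 lay above the IgG range of Lox, and the log2 fold change was 1.10 (SE 0.26, edgeR adjusted p = 0.293, DESeq2 adjusted p = 0.0235). Col1a1, a chain of type I collagen (chromosome 11, 94936224 to 94953042), had 508, 452, 1472, 813 and 1058 CPM against 507, 575, 630, 518 and 515 CPM. Replicate 2 was the lowest of the 10 libraries and replicate 3 the highest, and the log2 fold change of 0.65 (SE 0.25) was 0.11 without replicates 3 and 5. Dcn, the proteoglycan decorin, had 0.72 (SE 0.23) and Pecam1, an adhesion molecule of endothelium, 0.35 (SE 0.12). Myh11, a smooth muscle myosin, had 0.55 (SE 0.24). Without replicates 3 and 5 the fibroblast list had 1 of 17 genes at an unadjusted p under 0.05 and a median of 0.11, and the endothelial list 0 of 13 and 0.09.

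Epithelial markers, which the 4T1 tumour cells carry, were present at a high level and did not lean in one direction, with 2 of 12 higher, 3 lower and a median of -0.02. Krt8, a keratin of simple epithelia (chromosome 15, 101996698 to 102004482), had 1149, 1067, 653, 893 and 748 CPM under anti-CTLA-4 and 1107, 1040, 1180, 1130 and 1153 CPM under IgG. Its lowest levels were in replicates 3 and 5, and the log2 fold change was -0.31 (SE 0.12, edgeR adjusted p = 0.339). Krt19, another keratin, had 86.4 ± 24.9 CPM against 59.5 ± 14.6 CPM and 0.54 (SE 0.20). Of 24 proliferation genes 23 were negative and 7 were lower at an unadjusted p under 0.05, with a median of -0.17. Mcm7, a subunit of the replicative helicase (chromosome 5, 138164583 to 138172422), had 121, 127, 101, 118 and 111 CPM against 147, 144, 159, 117 and 144 CPM. All IgG libraries except replicate 4 exceeded the treated libraries, and the log2 fold change was -0.30 (SE 0.08, edgeR adjusted p = 0.293). Aurka, a mitotic kinase, had 33.4 ± 1.74 CPM against 39.3 ± 5.50 CPM and -0.24 (SE 0.09). Without replicates 3 and 5 the list had 2 of 24 genes lower and a median of -0.09.

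**Figure D4:**
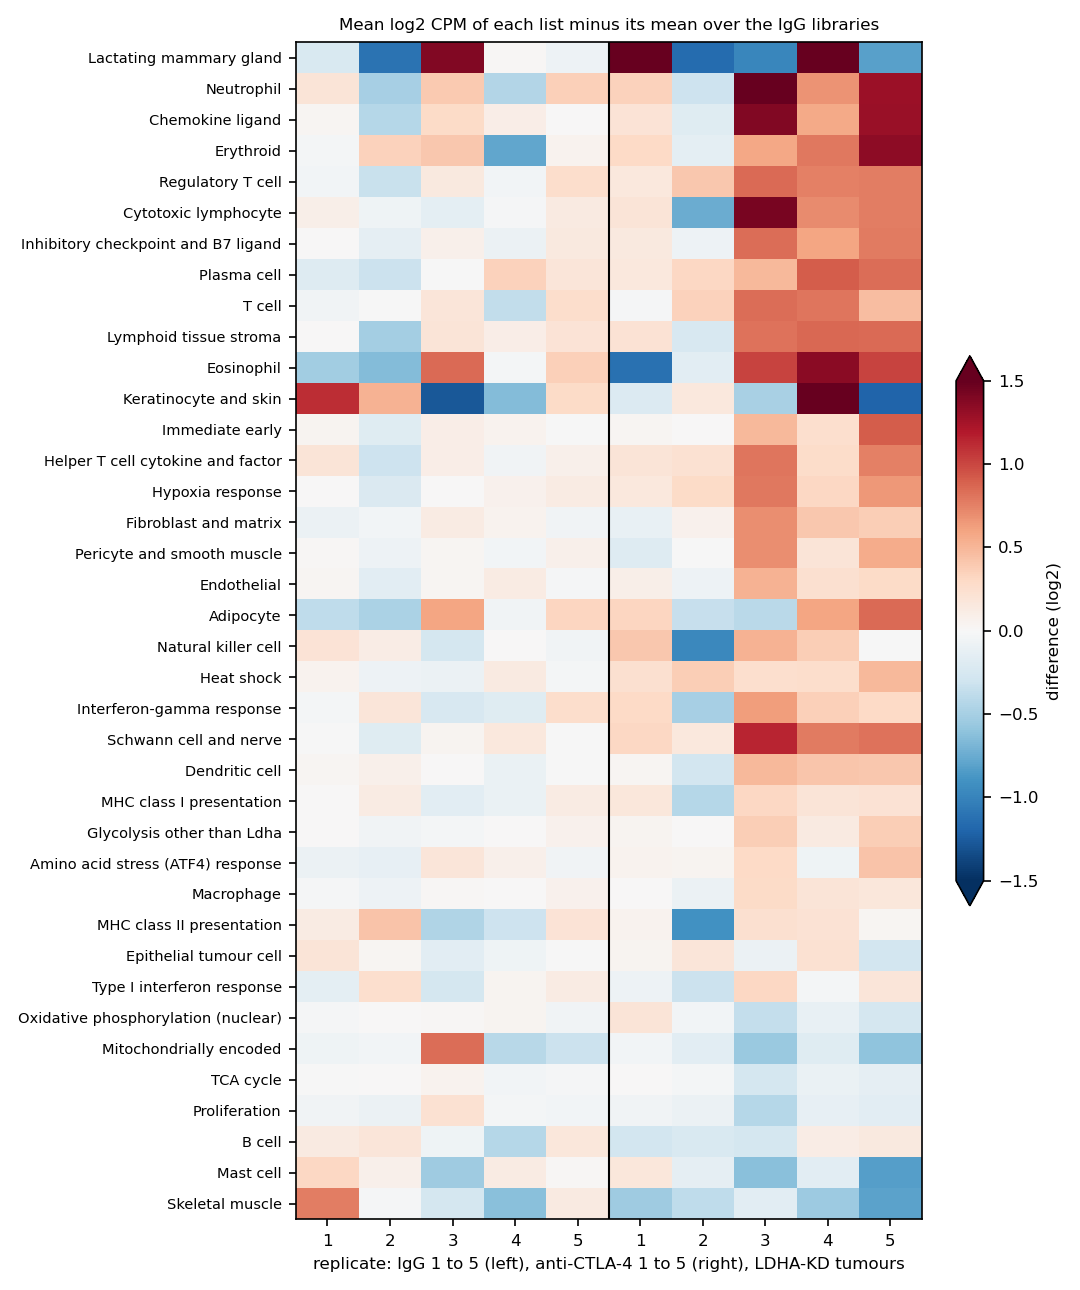
Mean log2 CPM of each gene list in the 10 LDHA-KD libraries minus its mean over the 5 IgG libraries (rows are lists, columns are libraries, IgG replicates 1 to 5 on the left and anti-CTLA-4 replicates 1 to 5 on the right; red is higher, blue lower, colours end at a difference of 1.5). Neutrophil and chemokine genes are dark red in anti-CTLA-4 replicates 3 and 5, while replicates 1 and 2 stay near the IgG libraries in most lists.

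Genes of tissue that can be carried along with a tumour and signs of tissue handling are given next, and 0 of them passed the adjusted threshold in the main edgeR fit. Some of these lists leaned in 1 direction, and their part in the results was not tested. Of 12 skeletal muscle genes 2 were lower at an unadjusted p under 0.05 and 0 higher (median -0.45), and without IgG replicate 1, which had the highest level of the list, 1 was lower (median -0.21). Tnnt3, a muscle troponin, had 9.10 ± 3.01 CPM against 15.7 ± 3.40 CPM, with a log2 fold change of -0.79 (SE 0.26). Adipocyte genes had 0 of 12 (median 0.23, and 0.01 without anti-CTLA-4 replicate 5), and lymphoid tissue stroma genes 2 of 4 higher (median 0.54). Lactating mammary gland genes had 1 of 5 higher and a median of 1.57, with a mean log2 CPM of 3.56 and 3.57 in anti-CTLA-4 replicates 1 and 4, at most 2.04 under IgG and below 0 in the other treated libraries. Erythroid genes had 1 of 5 higher, all 5 values positive and a median of 0.65, which was 0.31 without anti-CTLA-4 replicate 5, and replicates 3, 4 and 5 lay above every IgG library. Keratinocyte and skin genes had 0 of 6 and a median of 0.51, which was -0.46 without anti-CTLA-4 replicate 4. Of 5 Schwann cell and nerve genes 2 were higher and 1 had a negative value (median 0.18). Sox10, a factor of Schwann cells (chromosome 15, 79154908 to 79165240), had 0.814, 0.162, 2.31, 1.54 and 0.959 CPM against 0.158, 0.0256, 0.275, 0.432 and 0.191 CPM, and 2.44 (SE 0.64, edgeR adjusted p = 0.293, DESeq2 adjusted p = 0.0467) on the log2 scale. Replicate 2 was again the treated library within the IgG range of Sox10, and IgG replicate 2 was under the floor of 3 counts. Immediate early genes, which respond to handling as well as to signalling, had 6 of 10 higher (median 0.48), and 0 of 10 without replicates 3 and 5 (median 0.13). Fos, one of them, had 23.6, 30.4, 43.2, 33.5 and 67.4 CPM against 26.8, 23.3, 25.7, 26.2 and 24.8 CPM, with replicates 3 and 5 highest, and its log2 fold change without them was 0.20. Heat shock genes had 3 of 7 higher (median 0.20), and Hspa1b, an inducible chaperone with the near-identical copy Hspa1a, had 30.0 to 43.2 CPM against 17.2 to 24.2 CPM with no overlap, a log2 fold change of 0.68 (SE 0.21). The mean log2 CPM of the heat shock list ran from 5.90 to 6.16 in the treated libraries and from 5.57 to 5.80 under IgG, also with no overlap. Its median was at least 0.135 in all 19 alternative runs. In control tumours 5 of 7 heat shock genes were higher (median 0.28).

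The genes with the smallest p in each direction, among those in which at least 90% of the 25 library pairs pointed the same way, had smaller differences downward than upward. Of the 11 given upward, Rcan1, an inhibitor of calcineurin (chromosome 16, 92391953 to 92470867), had 58.4, 52.8, 93.5, 80.2 and 99.3 CPM under anti-CTLA-4 and 35.4, 27.9, 47.9, 56.9 and 41.1 CPM under IgG. Only replicate 2 lay within the IgG range of Rcan1, and the log2 fold change was 0.88 (SE 0.19, edgeR adjusted p = 0.293, DESeq2 adjusted p = 0.0194). Vldlr, a lipoprotein receptor, had 5.68 ± 2.56 CPM against 2.53 ± 0.602 CPM and 1.17 (SE 0.24). Mmp12, the elastase of macrophages (chromosome 9, 7344381 to 7369499), had 236, 204, 818, 415 and 828 CPM against 183, 151, 170, 202 and 196 CPM. Every treated library exceeded every IgG library of Mmp12, replicates 3 and 5 by the most, and the log2 fold change was 1.47 (SE 0.34). Serpinb2, an inhibitor of plasminogen activation, had 2.08 (SE 0.50). Fgf7, a growth factor made by fibroblasts, had 1.23 (SE 0.29), and Il1f9, an interleukin-1 family cytokine also called interleukin-36 gamma, 1.39 (SE 0.33). The others were Gdf11, a ligand of the TGF-beta family, with 0.56 (SE 0.13), Ak4, a mitochondrial adenylate kinase, with 0.70 (SE 0.17), and Banp, a nuclear matrix protein, with 0.40 (SE 0.09), beside Stc2 and Ctla4. Gdf11, Ak4, Banp and Mmp12 had no overlap between the groups, where 0.817% of all genes had every treated library above. The requirement on library pairs favours such genes.

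Of the 12 named downward, 8 had all treated libraries below all IgG libraries, where 0.567% of all genes did. The rule required at least 90% of the 25 library pairs in 1 direction, so this separation follows largely from the choice. Nrde2, a nuclear RNA-processing factor (chromosome 12, 100125452 to 100159653), had the smallest p of all genes, with 25.3, 24.4, 21.5, 23.02 and 23.4 CPM under anti-CTLA-4 and 29.2, 28.3, 31.9, 31.2 and 27.9 CPM under IgG. The groups of Nrde2 did not overlap, and the log2 fold change was -0.34 (SE 0.07, unadjusted p = 6.59e-05, edgeR adjusted p = 0.293, DESeq2 adjusted p = 0.0103). Cirbp, an RNA-binding protein induced by cold and stress (chromosome 10, 80165985 to 80172786), had 44.7, 37.7, 39.7, 35.0 and 36.1 CPM against 57.7, 63.0, 48.8, 45.1 and 52.5 CPM. It was also fully separated, with -0.47 (SE 0.10, edgeR adjusted p = 0.293, DESeq2 adjusted p = 0.0194), and its value without replicates 3 and 5 was -0.45. Exosc10, the catalytic nuclease of the nuclear exosome, had 80.7 ± 4.92 CPM against 96.3 ± 4.72 CPM, with a log2 fold change of -0.25 (SE 0.06). Chaf1b, a chromatin assembly factor, had -0.33 (SE 0.08), and Epha1, an ephrin receptor of epithelia, had 158 ± 27.2 CPM against 206 ± 10.4 CPM and -0.39 (SE 0.11). The other 7, Cep83os (an antisense transcript, whose reads may include those of its partner gene), Gnb5, Samd10, Chrnb1, Kcnk2, Zfp512 and Zgrf1, lay between -0.44 and -0.27. Without replicates 3 and 5, Nrde2 was at -0.29 and Exosc10 at -0.22.

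**Figure D5:**
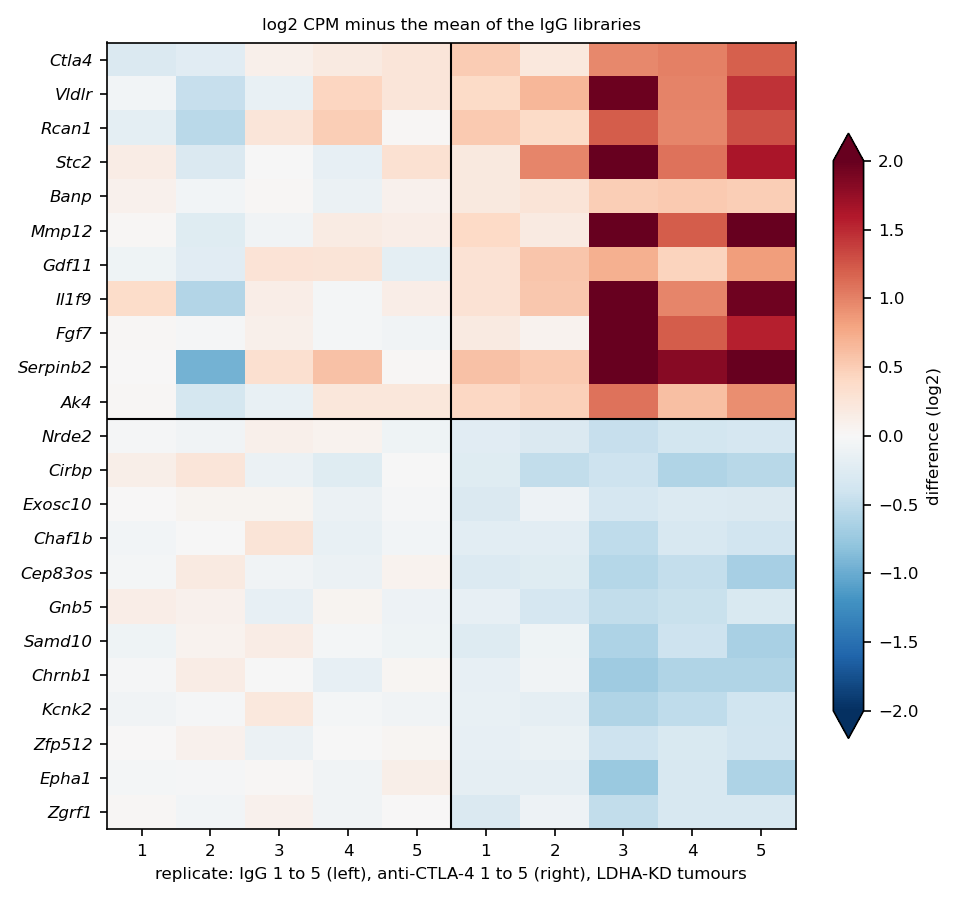
Log2 CPM of the 11 genes given upward and the 12 named downward in each LDHA-KD library, minus the mean of the IgG libraries (columns as in the plot of list levels, colours end at a difference of 2). Serpinb2, Mmp12, Fgf7 and Stc2 are darkest in anti-CTLA-4 replicates 3 and 5, and Nrde2 and Cirbp are lower in all 5 treated libraries.

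The last comparison asks whether the response of LDHA-KD tumours differed from that of control tumours under the same treatment. The interaction, in which the treatment difference of control tumours is subtracted from that of LDHA-KD tumours, called 0 of 16763 genes (0%) with edgeR, and its smallest adjusted p was 0.9998. At an unadjusted p under 0.05, 260 genes had a positive interaction (1.55%) and 155 a negative one (0.925%). In control tumours edgeR also called 0 genes (0%), with 787 genes higher (4.69%) and 559 lower (3.33%) at an unadjusted p under 0.05, and DESeq2 called 11 higher. Regulatory T cell genes had 0 of 14 interactions at an unadjusted p under 0.05, with a median of 0.05, and Ctla4 had a log2 fold change of 0.80 (SE 0.19) in LDHA-KD and 0.77 (SE 0.21) in control tumours. Foxp3 had 0.72 (SE 0.28) and 0.54 (SE 0.31), an interaction of 0.18 (edgeR adjusted p = 0.9998). The T cell list had a median of 0.55 in LDHA-KD and 0.94 in control tumours, with 12 and 18 of its 21 genes higher at an unadjusted p under 0.05. Control tumours started from a lower level. The mean log2 CPM of the list under IgG was 2.39 to 3.02 in LDHA-KD and 0.50 to 1.55 in control tumours. Under anti-CTLA-4 it was 2.75 to 3.61 and 1.43 to 2.36. Lymphoid tissue stroma genes had medians of 0.54 and 0.99. Of the T cell interactions, 4 of 21 were at an unadjusted p under 0.05: Cd3d (-0.75), Trbc2 (-1.03), Trat1 (-1.14) and, in the other direction, Trbc1 (0.75). Adipocyte genes had medians of 0.23 and 1.50, and 1 of 12 interactions was at an unadjusted p under 0.05. Gzme gave 1.01 (SE 0.32) in LDHA-KD and -0.56 (SE 0.31) in control tumours, an interaction of 1.57 (unadjusted p = 0.00219, edgeR adjusted p = 0.9998). Fibroblast and matrix genes had medians of 0.40 and -0.14, and 4 of 17 interactions were at an unadjusted p under 0.05, among them Lox at 0.91 and Col1a1 at 0.79. Without anti-CTLA-4 replicates 3 and 5 the LDHA-KD side of these differences was smaller. The fibroblast list then had a median of 0.11, and Gzme had 0.29, Lox 0.45 and Col1a1 0.11. Cirbp, separated in LDHA-KD tumours, had 0.00 (SE 0.10) in control tumours and an interaction of -0.47 (unadjusted p = 0.0035). None of these interactions passed the adjusted threshold in edgeR. Gzme, Lox, Col1a1 and Cirbp were picked for mention here after their values were seen. The LDHA-KD difference is part of the interaction. For a gene chosen by that difference, such as Cirbp, a small unadjusted p of the interaction therefore follows in part from the choice.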

How the data were processed

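Polyadenylated RNA was sequenced in 19 tumours, of which the 10 LDHA-KD tumours are described. The authors deposited raw counts per gene for each sample, made with HTSeq 0.5.3 on build mm10 per the submitters' processing notes, which also name Picard 1.124; which aligner, annotation release and strand setting were used is not given in the sources used here. Overlapping or antisense genes and close paralogs may therefore hold each other's reads. Summary rows for reads given to no gene were left out of totals and tests, and 0 columns were unmapped. Gene coordinates on GRCm38 come from GENCODE M21, in which 46488 of 46983 identifiers were found.

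The main test was that of edgeR 4.0.16 in R 4.3.3: filterByExpr on the group left 16763 genes, TMM factors scaled the libraries, all 19 samples shared 1 model with a coefficient per group, and contrasts were tested with the quasi-likelihood F test and Benjamini-Hochberg adjustment over all genes at 0.05. DESeq2 1.42.0, voom in limma 3.58.1, other scaling factors, no filter, only the 10 LDHA-KD samples, a replicate block, and libraries left out were alternatives. The code was tested on simulated data. Log2 CPM for list levels used a prior count of 2. A floor of 3 counts was 0.0693 to 0.0944 CPM and covers counting error only. No pair of libraries was a copy: over 171 pairs, the lowest chi-square per gene was 5.01.

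The members and the 38 gene lists (510 symbols, 1 absent) were chosen with earlier results of these data known. Named genes were 8 fixed genes (Ldha, Ldhb, Foxp3, Cd8a, Cd4, Ifng, Gzmb, Ctla4), up to 12 in each direction past the threshold or, failing that, with the smallest unadjusted p (no predicted-gene name, a mean log2 CPM over the LDHA-KD samples of 0 or more, and 90% or more of the 25 library pairs in one direction), and up to 4 per list with the smallest p. Tnfrsf18, Il10, Egln1, Mxi1, Ndrg1, Bnip3 and Higd1a, named for having no overlap, were chosen after their values were seen. Lrrc32, Ikzf2, Ikzf4 and Itgae, named beside them for overlapping, were too. Of the 12 genes that the rule gave upward, 1 is not reported here.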

Additional observations from a re-analysis of the deposited data

Results flagged for a closer look

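Among 284 groups of 5 libraries (named genes, list levels and library measures), 12 had a library set apart from the others by a gap that is large for the group's range. Chance alone sets apart about 1 in 20 groups, a share that the 12 do not exceed. In LDHA-KD tumours under IgG, replicate 2 was low in Il1b (150 CPM, next 205) and in Ero1l (151 CPM, next 214), and in the level of lymphoid tissue stroma genes (1.20, next 1.71 mean log2 CPM). IgG replicate 3 was low in P4ha2 (22.3 CPM, next 27.8) and high in Sparc (838 CPM, next 743), Kcnk2 (31.8 CPM, next 26.9) and the level of proliferation genes (6.92, next 6.66 mean log2 CPM). In the same library mt-Co3, a mitochondrially encoded subunit of cytochrome oxidase, had 50.5 CPM, and the next library had 0.282 CPM.

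Under anti-CTLA-4, replicate 2 was high in Exosc10 (89.2 CPM, next 79.9) and low in the levels of MHC class I genes (7.62, next 8.21 mean log2 CPM) and MHC class II genes (4.50, next 5.44). Replicate 3 was low in the level of proliferation genes (6.26, next 6.54).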

How the results depend on the processing

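The count of genes past the adjusted threshold in LDHA-KD tumours was 0 in both directions with edgeR under TMM, relative log expression and upper-quartile factors, with no filter, and with limma voom. DESeq2 gave 44 higher and 6 lower, and 11 higher in control tumours; for the interaction every alternative run called 0 genes. Leaving out each of the 10 LDHA-KD libraries in turn gave 0 to 1 genes higher, the 1 being Grem1 without anti-CTLA-4 replicate 1. Genes at an unadjusted p under 0.05 numbered 1987 with all libraries, 3391 without anti-CTLA-4 replicate 1, 919 without replicate 3, 1158 without replicate 5 and 364 without both replicates 3 and 5. The cause was not tested. With voom 58.5% of these genes were higher, against 69% with edgeR.

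Same-numbered libraries of the 2 LDHA-KD groups did not deviate together in every pair (correlations of -0.06, 0.18, 0.17, -0.14 and -0.08, with 2 of 5 libraries correlating best with their own number), so the numbers were not taken as pairs. With the replicate number as a block, edgeR called 0 genes over all 19 samples (smallest adjusted p 0.0941) and 6 higher in the LDHA-KD samples alone (Car4, Rcan1, Sox10, S100a8, S100a9 and Gm15056); without the block that smaller fit called 0. Of the named genes that were followed through the alternatives, 2 changed sign, both without anti-CTLA-4 replicates 3 and 5: Ldhb to 0.063 and Gzmd to -0.078. With 5 libraries a group, the median SE of a log2 fold change was 0.13.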

Other observations

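The genes that DESeq2 called and edgeR did not included genes outside the gene lists, chosen for mention after their values were seen. Il11, a cytokine of fibroblasts and tumour cells, had 7.09, 5.64, 20.0, 7.55 and 20.3 CPM in anti-CTLA-4 replicates 1 to 5 and 4.46 to 7.75 CPM under IgG (DESeq2 adjusted p = 0.0448), with replicates 3 and 5 above all other libraries. Ptgs2, the inducible cyclooxygenase of prostaglandin synthesis, had 501, 508, 782, 528 and 879 CPM against 338, 206, 338, 496 and 345 CPM, with no overlap between the groups (edgeR log2 fold change 0.89, SE 0.23; DESeq2 adjusted p = 0.0448). Il13ra2, a decoy receptor for interleukin-13, had 5.81, 4.97, 18.9, 8.75 and 13.9 CPM against 1.49 to 4.89 CPM, also without overlap (DESeq2 adjusted p = 0.0238). Il7r, the interleukin-7 receptor of T cells, had 20.9, 33.4, 55.2, 37.9 and 46.1 CPM against 17.5 to 25.5 CPM, with replicate 1 within the IgG range (DESeq2 adjusted p = 0.0448).

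Of the 44 genes that DESeq2 called higher, 35 had anti-CTLA-4 replicates 3 and 5 as their highest 2 libraries. Their median edgeR log2 fold change was 1.10 with all libraries and 0.59 without those replicates. Without them all 44 values were still positive, and 36 were at an unadjusted edgeR p under 0.05, where 208 of all 16869 genes were higher. The 44 genes were chosen by calls that also used the remaining libraries, so these counts are not independent support. Only 6 of the 50 genes called in either direction belonged to a gene list: Stc2, Lox, Ccl17, Ctla4, Sox10 and Tnfrsf9.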
